A study of Homo sapiens with 4 samples.

Results

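Mesenchymal nuclei are the nuclei of enteric ganglioids that the authors' annotation assigns to the class Mesenchymal. The annotation places 903 nuclei of 14812 annotated nuclei in this class, out of 25306 deposited nuclei. Enteric ganglioids are cultures in which enteric neurons form with their precursors as floating 3D clumps, grown here in suspension from H9, an established human embryonic stem cell line, by way of spheres of enteric neural crest cells. All 4 samples are stage 1 ganglioids and were profiled by single-nucleus RNA sequencing (snRNA-seq). Both control samples received no compound, and both PP121 samples received PP121, an inhibitor of several tyrosine kinases that include the PDGF and VEGF receptors and the SRC and ABL kinases, at 2 µM from day 15 to day 20. Replicates 1 and 2 of each group are separate differentiations of this 1 line, each a pool of ganglioids. For PP121 against control, p-values of the gene tests measure the spread between them. For replicate 2 against replicate 1, they measure the spread between control and PP121 samples of the same replicate number. Spread between differentiations is not measured there. The deposited annotation dates replicate 1 of both groups to day 42 and replicate 2 to day 38, so date and differentiation cannot be told apart. The study's text gives a single day for these ganglioids, and whether the deposited dates are days of collection is not given in the sources used here.

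Mesenchyme is loose connective tissue of spindle-shaped cells that secrete collagens, proteoglycans and matrix-remodelling enzymes and that respond to platelet-derived growth factors through the receptors PDGFRA and PDGFRB. In the embryo it comes from mesoderm, including the splanchnic mesoderm that forms the muscle and fibroblast layers of the gut, and, mainly in the head, from the neural crest. Gut mesenchyme surrounds the migrating precursors of enteric neurons and is a source of ligands such as GDNF and endothelin 3.

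The 2 PDGF receptors are among the markers given for the class and are targets of PP121, and they differed in opposite directions between the replicates, so the 250 bases before their annotated start sites are shown. They were taken from RefSeq (GRCh38.p14) and are written 5′ to 3′ on the strand of the gene, with the letters CCAAT, or ATTGG on the other strand, in capitals.

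PDGFRA, upstream start site, chr4:54229043-54229292, plus strand: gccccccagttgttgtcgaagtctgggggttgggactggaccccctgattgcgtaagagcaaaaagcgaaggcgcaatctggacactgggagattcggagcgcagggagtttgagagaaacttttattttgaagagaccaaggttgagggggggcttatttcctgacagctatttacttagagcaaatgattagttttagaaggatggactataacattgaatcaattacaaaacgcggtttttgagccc
PDGFRA, downstream start site, chr4:54233710-54233959, plus strand: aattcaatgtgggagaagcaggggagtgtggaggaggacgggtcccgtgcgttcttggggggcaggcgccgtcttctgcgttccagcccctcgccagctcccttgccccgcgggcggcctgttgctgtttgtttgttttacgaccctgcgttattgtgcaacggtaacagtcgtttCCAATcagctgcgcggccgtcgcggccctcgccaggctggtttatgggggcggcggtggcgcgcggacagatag
PDGFRB, chr5:150155846-150156095, minus strand: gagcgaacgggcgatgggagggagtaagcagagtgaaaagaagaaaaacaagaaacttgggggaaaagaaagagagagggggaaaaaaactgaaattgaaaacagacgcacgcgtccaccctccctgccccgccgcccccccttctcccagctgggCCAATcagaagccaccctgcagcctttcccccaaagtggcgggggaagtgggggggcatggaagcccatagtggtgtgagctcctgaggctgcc

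CCAAT lay once in the window of the downstream PDGFRA start site, 74 bases before it, and once in the PDGFRB window, 94 bases before the start site. It was not found in the window of the upstream PDGFRA start site. The letters occurred on either strand in 32.0% of 35116 promoter windows of this length. GGGCGG, or CCGCCC, was found in 42.6% of the windows, 2 times in the downstream PDGFRA window, 1 time in the PDGFRB window and not in the upstream PDGFRA window.

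The mesenchymal label was matched by its markers in every sample. Summed over 9 markers (PDGFRA, PDGFRB, COL1A1, COL1A2, COL3A1, DCN, LUM, TWIST1 and PRRX1), mesenchymal nuclei held 3120 and 3074 CPM (unique molecular identifiers, UMIs, scaled to a total of 1e+06 for the class in a sample) in control replicates 1 and 2, and 2866 and 3391 CPM in PP121 replicates 1 and 2. Enteric neurons held 11.4 to 56.3 CPM of the same markers, progenitors 21.9 to 89.0 CPM and epithelial nuclei 92.8 to 183 CPM. No marker was at 0 in mesenchymal nuclei of any sample, but PDGFRA had 1 UMI in PP121 replicate 1, where its level of 3.36 CPM lay below the 4.13 CPM of progenitor 1. The class was made by clustering expression, and the genes by which the study annotated it include all of these markers but DCN and LUM. These levels therefore describe the class, cannot test its label and were not tested. The study's annotation genes also include EDNRA, LAMA4, RUNX2 and COL11A1, and the counts of led genes given below are likewise no test of the label. COL1A2, a chain of type I collagen, had a UMI in 92.7% of 408 mesenchymal nuclei of control replicate 2 and in 93.8% of 422 of PP121 replicate 2. In enteric neurons, which should lack it, a COL1A2 UMI was found in 7.44% of 1250 and 12.6% of 976 nuclei, at median depths of 7782 and 8102 UMIs against 8036 and 7227 in mesenchymal nuclei. With every nucleus thinned to 2000 UMIs, the COL1A2 shares were 72.6% and 76.4% in mesenchymal nuclei, and 2.01% and 2.88% in neurons; 3 and 2 shallower nuclei of each class were left out.

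**Figure D1:**
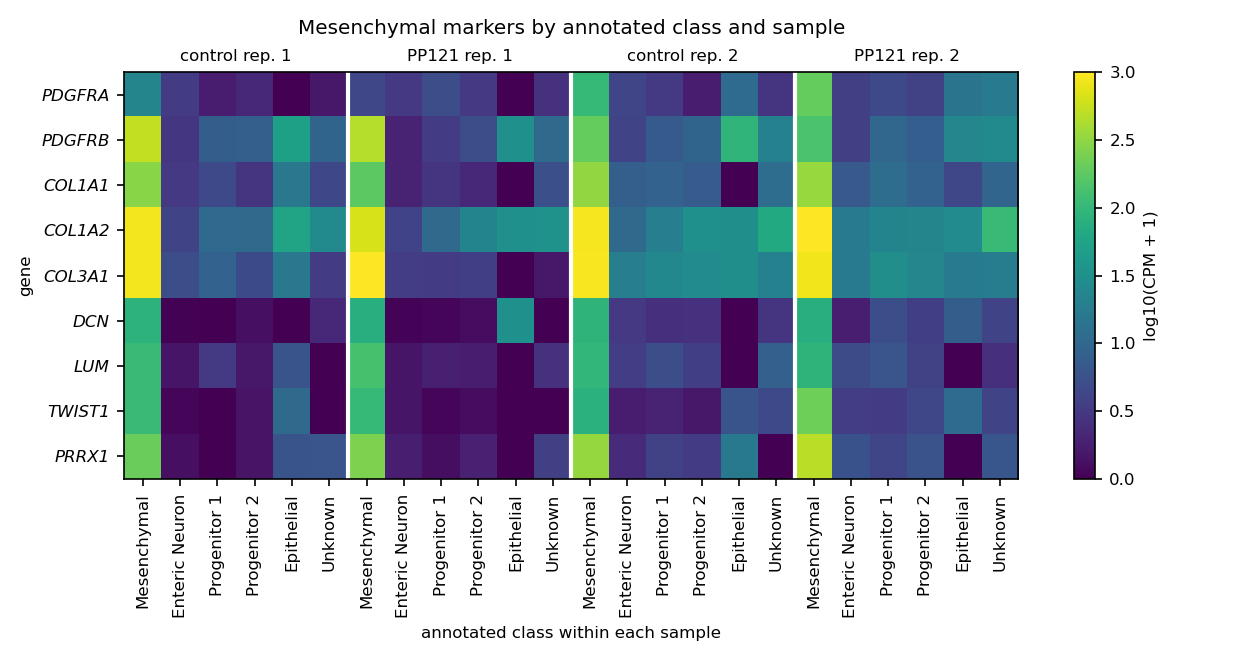
Heat map of 9 mesenchymal markers (vertical axis) in the 6 annotated classes of each of the 4 samples (horizontal axis), coloured by log10(CPM + 1) of UMIs summed over the nuclei of a class. The mesenchymal column is the brightest for every marker in every sample, apart from PDGFRA in PP121 replicate 1, at 3.36 CPM; epithelial columns rest on 9 to 37 nuclei.

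Markers of other cell types were present too. Enteric neuron markers (8 genes) summed to 308 to 527 CPM in mesenchymal nuclei against 2824 to 3458 CPM in enteric neurons, and the progenitor and glia markers (8 genes) to 26.9 to 135 CPM against 543 to 661 CPM in progenitor 2. Against the pooled other nuclei of replicate 2, the 4 progenitor and glia markers at 5 CPM or more had a median log2 ratio of 0.41. That median leaves out markers that were low in mesenchymal nuclei, so it does not describe the whole list. In control and PP121 replicate 2 these were FABP7 (0 and 0.576 CPM), S100B (3.04 and 1.15 CPM), FOXD3 (2.49 and 2.88 CPM) and SOX2 (4.97 and 12.1 CPM). The 6 enteric neuron markers at 5 CPM or more had a median log2 ratio of -2.33. Epithelial markers (5 genes) summed to 160 and 39.0 CPM in control replicates 1 and 2 and to 57.2 and 18.1 CPM in PP121 replicates 1 and 2, so they were higher in replicate 1 of both groups. Smooth muscle markers (8 genes) stood at 61.7 to 126 CPM, within the 52.5 to 229 CPM of the other annotated classes. Endothelial markers (5 genes) stood at 11.8 to 33.6 CPM and pericyte markers (5 genes) at 76.0 to 118 CPM. Immune markers (4 genes) were at 32.3 to 48.4 CPM in 3 samples and at 140 CPM in control replicate 1. Against the pooled other nuclei of replicate 2, the 3 pericyte and 2 immune markers at 5 CPM or more had median log2 ratios of 0.57 and 1.345. No endothelial marker reached that level in both replicate 2 samples.

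The class was found almost entirely in replicate 2. It made up 40 of 4283 annotated nuclei in control replicate 1 (0.934%, 95% Clopper-Pearson interval 0.668 to 1.27%) and 33 of 4587 in PP121 replicate 1 (0.719%, 0.496 to 1.01%). In control replicate 2 it made up 408 of 3030 nuclei (13.5%, 12.3 to 14.7%) and in PP121 replicate 2 it made up 422 of 2912 (14.5%, 13.2 to 15.8%). Intervals cover counting error only. Replicate 2 exceeded replicate 1 by 13.2 percentage points (13.98 ± 0.726 against 0.827 ± 0.152%, SD, n = 2), and the groups did not overlap; the exact two-sided permutation p was 0.333, the smallest that 2 against 2 samples allow. PP121 and control differed by 0.406 points (7.61 ± 9.74 against 7.2 ± 8.86%, SD, n = 2; exact permutation p = 1.00), and the direction turned when 1 sample was left out, with differences from -6.48 to 7.29 points. Total counts of the mesenchymal sums were 356782 and 3618664 UMIs in control replicates 1 and 2 and 297230 and 3472037 UMIs in PP121 replicates 1 and 2, so the levels in replicate 1 rest on far fewer UMIs.

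Of 13031 genes at 5 CPM or more in mesenchymal nuclei of both replicate 2 samples, 455 (3.49%) were at least 4-fold above the pooled other annotated nuclei in both, with 0.5 CPM added to each side; without PP121 replicate 2 the number was 687, and it was 269 when replicate 1 had to pass too. Among genes ranked by their ratio over the highest other class, TBX18-AS1, an antisense RNA of TBX18, stood first, at 36.4 and 38.1 CPM in control replicates 1 and 2 and 33.6 and 26.2 CPM in PP121 replicates 1 and 2. Its lower ratio of both replicate 2 samples was 170, and the ratios of the 25 leading genes had a median of 31.7 and a minimum of 21.7. Whether strand was used in counting is not given in the sources used here, so antisense and overlapping genes are uncertain.

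The 25 include the ETS-family transcription factors ERG, FLI1 and ETS1, known from endothelium and blood but also from connective tissue, with ratios of 63.0, 31.7 and 29.8. They include the homeodomain factors ALX1 and PRRX1, which act in craniofacial and limb mesenchyme (38.2 and 22.0). They include the matrix genes POSTN, COL21A1, LAMC3, COL1A1 and COL3A1 (43.1, 36.4, 32.4, 30.3 and 29.5) and the endothelin A receptor EDNRA (31.3). The metallopeptidases ADAM33 and MME had ratios of 34.2 and 28.2. Levels in replicate 1 varied among the 25: ERG was at 2.80 and 0 CPM in control and PP121 replicate 1 against 88.2 and 248 CPM in replicate 2, whereas FLI1 was at 64.5 and 43.7 against 57.2 and 67.4 CPM. AP001037.1 had no UMI in replicate 1.

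**Figure D2:**
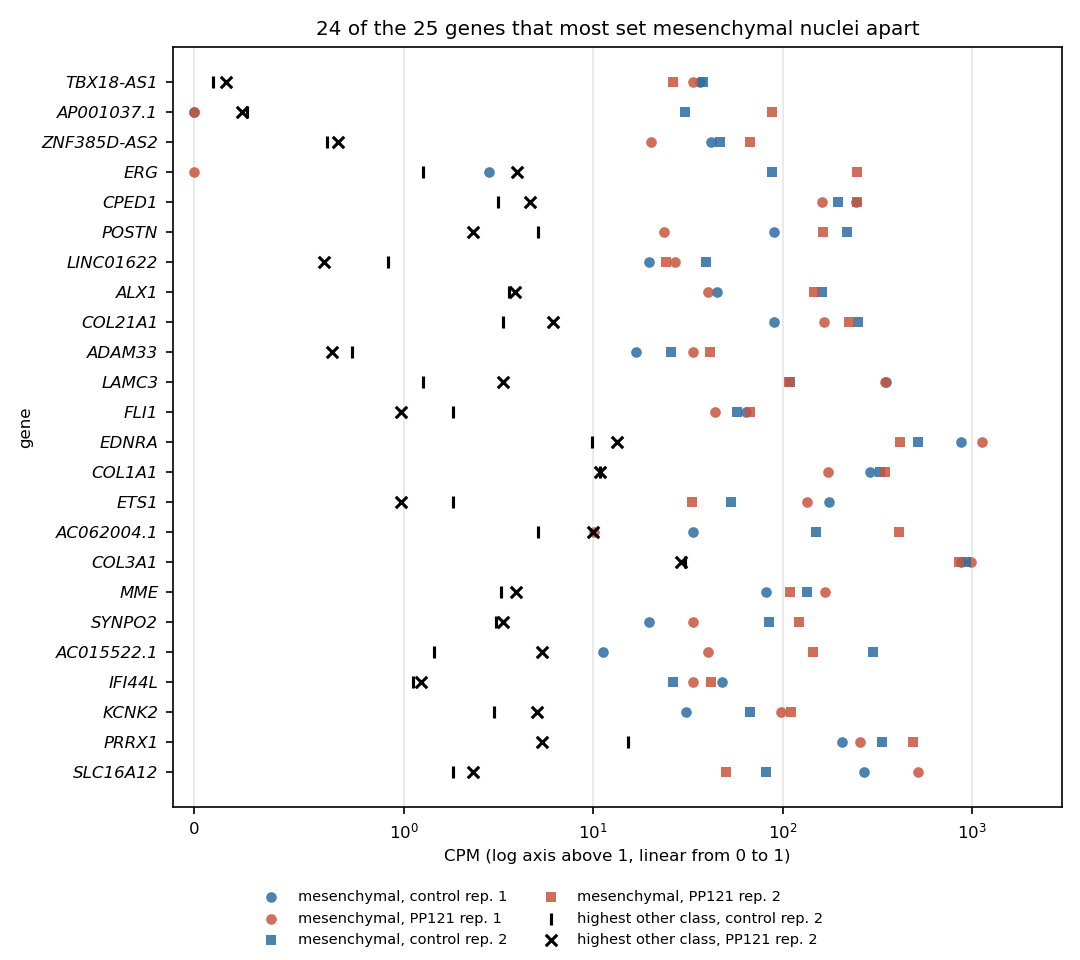
CPM (horizontal axis, logarithmic above 1 and linear from 0 to 1) of 24 of the 25 genes with the largest ratio of mesenchymal nuclei over the highest other class, in the order of that ratio (vertical axis); circles are replicate 1, squares replicate 2, blue control and red PP121, and black marks the highest other class of each replicate 2 sample. The squares of these 24 genes lie to the right of the black marks, while AP001037.1 has both circles at 0.

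Transcription factors of mesenchyme and neural crest were led by the class in part. Of the 29 genes of this list at 5 CPM or more, 11 were at least 4-fold above the other nuclei, against 3.49% of all genes at this level. TBX18, a T-box factor of sclerotome and epicardium, stood at 140 and 194 CPM in the controls and 155 and 139 CPM in the PP121 samples (replicates 1 and 2), 82 to 150 times the other nuclei in replicate 2. PRRX1 stood at 207 and 335 CPM in the controls and at 256 and 488 CPM in the PP121 samples, 98 to 136 times the other nuclei. TWIST1, which drives epithelial-mesenchymal transition, stood at 107 and 81.8 CPM in the controls and at 101 and 217 CPM in the PP121 samples, with ratios of 61.1 and 63.5 in replicate 2. ALX4, TBX15, FOXC1 and FOXD1 were led too, with ratios of 12.5 to 39.8. PAX3 and TFAP2B, which mark neural crest, were below the other nuclei, with ratios of 0.0877 and 0.206 for PAX3 and of 0.433 and 0.414 for TFAP2B.

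HOX genes and many gut mesenchyme factors were near 0. The 39 HOX genes, which set position along the body axis and are expressed in vagal neural crest, summed to 33.6 and 14.1 CPM in mesenchymal nuclei of control replicates 1 and 2 and to 26.9 and 24.8 CPM in those of PP121. Enteric neurons of the same samples held 118 to 212 CPM and progenitors 78.3 to 107 CPM. At 2000 UMIs per nucleus, a HOXB3 UMI was found in 1.23% and 0.952% of mesenchymal nuclei of control and PP121 replicate 2. Their enteric neurons had one in 7.78% and 10.1%, but their progenitor 1 nuclei in 1.82% and 1.81%, so few HOXB3 UMIs were not particular to the class. For HOXA3 the shares were 0.988% and 0.476% in mesenchymal nuclei, 4.89% and 4.93% in neurons and 6.468% and 6.225% in progenitor 1. BARX1, HAND1, HAND2, NKX2-3, NKX3-2, TCF21 and WT1, factors of visceral mesoderm and mesothelium, had no UMI among 7744713 in the 4 mesenchymal sums, which allows a level of up to 0.387 CPM. FOXF1, the hedgehog target that defines splanchnic mesoderm, had 2 UMIs in control replicate 2 and 1 UMI in PP121 replicate 2, and its paralogue FOXF2 had 3 and 14 UMIs in the controls and 3 and 19 UMIs in the PP121 samples.

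Collagens were led by the class in large part. Over all genes at 5 CPM or more, the share led at least 4-fold was 3.49%, to be set beside each count of this paragraph. Of 10 fibrillar collagens at 5 CPM or more, 7 were led at least 4-fold, and of 25 other collagens 12 were. COL1A1 stood at 292 and 328 CPM in control replicates 1 and 2 and at 175 and 347 CPM in PP121 replicates 1 and 2. COL3A1 stood at 875 and 934 CPM in the controls and at 993 and 861 CPM in the PP121 samples. COL6A3, a chain of the pericellular type VI collagen, had ratios of 100 and 45.4 to the other nuclei, and COL12A1, which decorates collagen fibrils, of 50.5 and 66.3. The enzymes of collagen processing were shared with other classes: 2 of 24 at 5 CPM or more were led, among them not P4HA1, the prolyl hydroxylase subunit, with ratios of 1.31 and 1.02. Among proteoglycans and elastic fibre genes 21 of 39 were led, including TNC, a matrix glycoprotein that lines the paths of migrating crest cells (ratios 103 and 81.2), LAMA2 (34.7 and 28.5), LAMA4 (27.8 and 42.1) and FBLN1 (25.3 and 17.1). Matrix enzymes were led in 8 of 21 cases, with MMP14 at ratios of 22.3 and 15.5.

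Receptors and ligands followed, and their counts of led genes are likewise set against 3.49% of all genes at 5 CPM or more. Of the PDGF and VEGF genes, 4 of 13 were led: PDGFRA (34.4 and 43.2), PDGFRB (29.2 and 19.2) and the neuropilins NRP1 (6.71 and 4.37) and NRP2 (4.397 and 10.02). The VEGF receptor FLT1 was at ratios of 0.716 and 0.787, and KDR had 0 and 4 UMIs in the controls and 0 and 6 UMIs in the PP121 samples (replicates 1 and 2). None of 6 SRC and ABL kinases and none of 7 FGF genes at this level was led. In the TGF-beta and BMP list 7 of 23 were led, among them the receptors TGFBR2 (40.7 and 13.7) and TGFBR3 (14.7 and 9.96) and the ligands TGFB2 (12.0 and 31.0) and BMP5 (22.4 and 6.89). In the WNT list 5 of 19 were led, among them the WNT antagonist SFRP1 (21.6 and 26.1) and the receptors ROR1 (11.6 and 5.16) and ROR2 (19.6 and 7.23). Of 19 factors that act on enteric progenitors 6 were led, including EDNRA (60.6 and 41.7), the chemokine CXCL12 (17.4 and 18.7) and the retinoic acid synthase ALDH1A2 (43.5 and 16.4). EDN3, the ligand of the enteric receptor EDNRB, was at 0 and 2.49 CPM in the controls and at 0 and 5.18 CPM in the PP121 samples. Of 17 contractile genes 4 were led, among them SYNPO2, an actin-bundling protein (33.1 and 63.9), and not MYH11, the smooth muscle myosin (1.82 and 1.27).

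Mesenchymal nuclei of replicate 2 fell into 5 sub-clusters, which are described by their leading genes and were given no cell type name. Sub-cluster 1 (137 nuclei of control and 126 of PP121 replicate 2) was led by ZNF385D, SLC16A12 and LAMA2, with the laminin LAMC3 also among its leading 10 genes; LAMA2, the laminin alpha 2 chain, stood at 2800 and 3440 CPM there against 357 and 492 CPM in the other mesenchymal nuclei. Sub-cluster 2 (178 and 46 nuclei) was led by CPXM2, MAP3K5, MT-ND2, PDLIM3 and MYOF, and held the nuclear RNA NEAT1 at 6832 and 5552 CPM and the glucose transporter SLC2A1 at 81.8 and 169 CPM. Sub-cluster 3 (33 and 157 nuclei) was led by HPSE2, a heparanase homologue, at 1099 and 1643 CPM, then by SGCZ, AC004594.1, CADPS2 and COL24A1, and had COL1A1 at 738 and 584 CPM. Sub-cluster 4 (35 and 81 nuclei) was led by AC068931.1, the growth factor NRG1 and the mitotic genes KIF18B, BUB1B and CDCA2. NRG1 stood at 96.0 and 938 CPM there, and 61.5% of its 955 UMIs in mesenchymal nuclei of PP121 replicate 2 lay in 1 nucleus. In sub-cluster 4, 67 of 116 nuclei (57.8%) were doublet candidates (nuclei whose profile resembles a mixture of 2), against 0 to 3.68% in the other sub-clusters. Its median depths of 13617 and 11977 UMIs were the highest of the 5.

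Sub-cluster 5 (25 and 12 nuclei) went against the mesenchymal label. Its leading genes were CDH19, ADGRG6, LINC01608, ESRRG and NR4A2, with CDH19, a cadherin of crest-derived precursors and glia, at 1443 and 1690 CPM against 0.292 and 1.77 CPM in the other nuclei. COL3A1 was at 40.8 and 23.3 CPM, PDGFRA had no UMI and PRRX1 was at 0 and 23.3 CPM. The progenitor and glia markers ERBB3 (179 and 186 CPM) and SOX10 (96.9 and 93.2 CPM) were present in it. COL1A1 (189 and 140 CPM) and POSTN (469 and 781 CPM) were present too. The 73 nuclei of replicate 1, placed by their nearest replicate 2 neighbours, went to sub-cluster 1 (24 control, 19 PP121), sub-cluster 2 (12 and 11), sub-cluster 4 (1 and 3) and sub-cluster 5 (3 and 0), and none to sub-cluster 3. Sizes were not tested between PP121 and control, since SGCZ and COL24A1, which lead sub-cluster 3, differed between them with the replicate as a block.

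**Figure D3:**
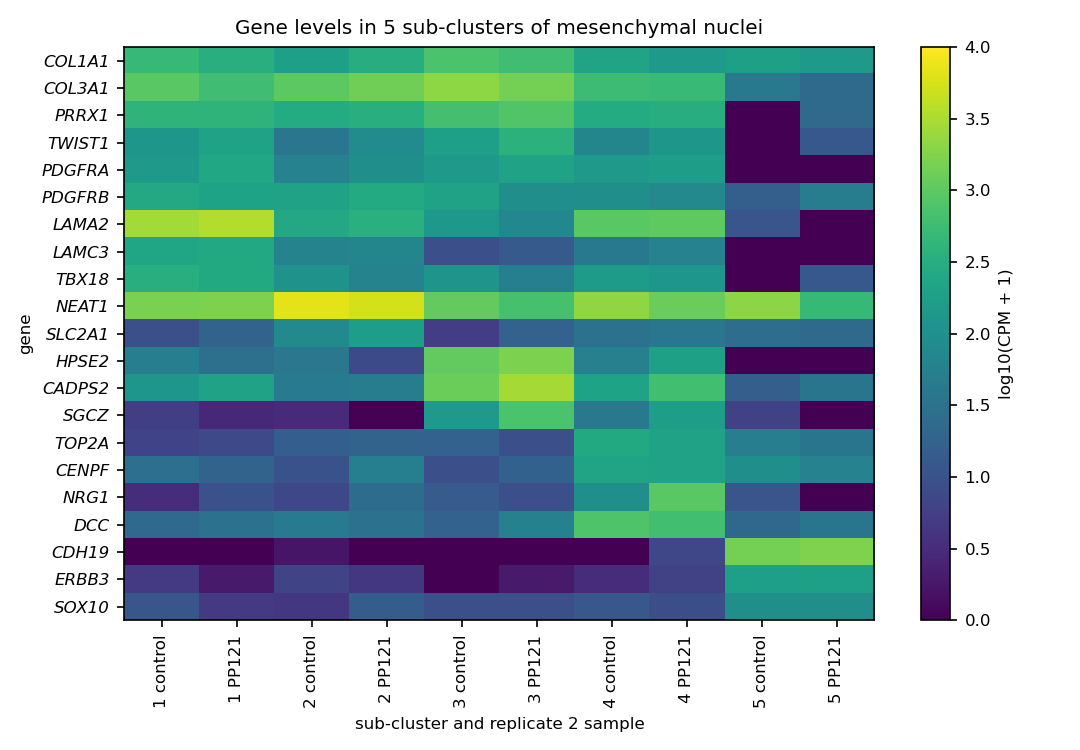
Heat map of 21 genes (vertical axis) in the 5 sub-clusters of mesenchymal nuclei of control and PP121 replicate 2 (horizontal axis), coloured by log10(CPM + 1). LAMA2 is brightest in sub-cluster 1, NEAT1 in sub-cluster 2, HPSE2 and CADPS2 in sub-cluster 3, and CDH19 in sub-cluster 5, where PDGFRA is at 0.

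Between the replicates, 277 of 14387 genes tested (1.93%) differed in mesenchymal nuclei (edgeR quasi-likelihood test, adjusted p under 0.05), of which 146 (1.01%) were higher and 131 (0.911%) lower in replicate 2. The 2 PDGF receptors moved in opposite directions. PDGFRA stood at 22.4 CPM (95% Poisson interval 9.68 to 44.2, 8 UMIs) in control and 3.36 CPM (0.0852 to 18.8, 1 UMI) in PP121 replicate 1, and at 101 CPM (90.8 to 112) and 193 CPM (178 to 208) in replicate 2. It was higher in replicate 2 by 3.38 on the log2 scale (SE 0.58, edgeR adjusted p = 0.0149). PDGFRB stood at 533 and 468 CPM in control and PP121 replicate 1 and at 196 and 139 CPM in replicate 2, and fell by 1.63 on the log2 scale (SE 0.26, edgeR adjusted p = 0.0116). For both genes the samples of one replicate did not overlap those of the other. Within the nuclei of sub-cluster 1 alone PDGFRB differed by -1.36 on the log2 scale and lost its call (edgeR adjusted p = 0.0727), and PDGFRA differed by 3.79 and kept it (edgeR adjusted p = 0.00966).

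Other growth factor genes that rose were FGFR2, a receptor of fibroblast growth factors, TGFB2, and the WNT antagonists SFRP1 and DKK2. FGFR2 stood at 19.6 and 30.3 CPM in control and PP121 replicate 1 and at 130 and 246 CPM in replicate 2 (log2 fold change 2.89, SE 0.44, edgeR adjusted p = 0.00894). TGFB2 stood at 39.2 and 6.73 CPM in replicate 1 and at 130 and 385 CPM in replicate 2, and its call was lost without doublet candidates and within sub-cluster 1 alone. DKK2 had no UMI in replicate 1 and stood at 74.9 and 59.0 CPM in replicate 2, at least 14.6-fold higher, with a limit of 3 UMIs over both replicate 1 samples (4.59 CPM). EDNRA fell, from 883 and 1134 CPM to 518 and 419 CPM (log2 fold change -1.15, SE 0.25, edgeR adjusted p = 0.0444). This call was lost without doublet candidates, without PP121 replicate 2, without sub-clusters 4 and 5 and within sub-cluster 1 alone. FRZB, a further WNT antagonist, fell by 1.46 on the log2 scale, and lost its call without doublet candidates and within sub-cluster 1 alone. In the WNT list 3 of 20 genes tested rose and 1 fell, in the factors for enteric progenitors 2 of 20 rose (SEMA3D and SLIT2, axon guidance ligands) and 1 fell, and in the TGF-beta and BMP list 1 of 22 rose, against 1.01% of all genes that rose and 0.911% that fell. SLIT2 did not pass within sub-cluster 1 alone, and of the WNT genes that rose LGR4, a receptor of R-spondins, lost its call without control replicate 1 and within sub-cluster 1.

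Collagens changed in both directions. COL11A1, a minor fibrillar collagen, stood at 14.01 and 47.1 CPM in control and PP121 replicate 1 and at 263 and 467 CPM in replicate 2 (log2 fold change 3.59, SE 0.47, edgeR adjusted p = 0.00601). COL4A1 and COL4A2, the paired chains of basement membrane collagen that are transcribed from 1 shared promoter, fell together. COL4A1 went from 706 and 777 CPM to 194 and 95.9 CPM (log2 fold change -2.40, SE 0.33, edgeR adjusted p = 0.0068), and COL4A2 from 779 and 787 CPM to 230 and 194 CPM (-1.93, SE 0.24, edgeR adjusted p = 0.00578). COL14A1, which had no UMI in replicate 1, was at least 7.26-fold higher. COL25A1 rose and COL13A1 fell, so that 1 of 10 fibrillar collagens rose and, of 27 other collagens, 2 rose and 3 fell; COL13A1 lost its call without sub-clusters 4 and 5. The type I and III chains did not pass, with a log2 fold change of 0.47 (SE 0.29) for COL1A1 and of -0.10 (SE 0.24) for COL3A1. Of 21 matrix enzymes 4 rose (ADAMTS5, ADAMTS17, ADAMTS20 and ADAMTSL1) and 2 fell (ADAM12 and the inhibitor TIMP1), and of 43 proteoglycan and elastic fibre genes the fibrillins FBN2 and FBN3 rose, against 1.01% of all genes that rose and 0.911% that fell. The collagen hydroxylase P3H2 was the 1 riser of 25 processing genes. Many of these calls rested on 1 library or on few nuclei. Without PP121 replicate 2 the calls of ADAMTS5, TIMP1, FBN2, FBN3 and P3H2 were lost, without PP121 replicate 1 that of FBN2 and without control replicate 2 that of P3H2. ADAMTSL1 and FBN3 lost theirs without doublet candidates, and ADAMTSL1, TIMP1 and FBN2 without sub-clusters 4 and 5. Within sub-cluster 1 alone TIMP1, FBN2 and P3H2 did not pass. ADAM12, ADAMTS17 and ADAMTS20 kept their calls in each of these alternatives in which they were tested.

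Of 32 transcription factors of mesenchyme and neural crest tested, FOXP2 and ALX1 rose and ZEB1, RUNX1 and NR2F2 fell. Over all genes 1.01% rose and 0.911% fell. The calls of RUNX1 and NR2F2 were lost without doublet candidates and without sub-clusters 4 and 5. RUNX1 also lost its call without control replicate 1 and with counts thinned to the smallest library. NR2F2 also lost its call without PP121 replicate 1 and within sub-cluster 1 alone. ALX1 stood at 44.9 and 40.4 CPM in control and PP121 replicate 1 and at 162 and 147 CPM in replicate 2 (log2 fold change 1.81, SE 0.31, edgeR adjusted p = 0.0148), and by 1.46 within sub-cluster 1 alone, where it did not pass (edgeR adjusted p = 0.0956). In that sub-cluster ALX1 stood at 33.1 and 35.3 CPM in control and PP121 replicate 1 and at 115 and 84.1 CPM in replicate 2, without overlap. ZEB1, a repressor of epithelial genes, stood at 2699 and 1867 CPM in replicate 1 and at 678 and 472 CPM in replicate 2 (log2 fold change -2.04, SE 0.30, edgeR adjusted p = 0.0078). In the gut mesenchyme and hedgehog list 3 of 10 genes tested rose, against 1.01% of all genes. Among them GLI2, the hedgehog effector, rose by 1.79 on the log2 scale (SE 0.35) and BOC, a hedgehog co-receptor, by 2.83 (SE 0.48). BOC did not pass within sub-cluster 1 alone, and its smallest log2 fold change over the alternatives was 0.53. SYNPO2 was the 1 contractile gene of 17 that rose, and lost its call without PP121 replicate 2. None of 6 SRC and ABL kinases passed.

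The largest falls were in 2 long non-coding RNAs. LINC02147 stood at 1654 and 1501 CPM in control and PP121 replicate 1 and at 27.1 and 44.1 CPM in replicate 2 (log2 fold change -5.51, SE 0.34, edgeR adjusted p = 2.19e-05). A LINC02147 UMI was found in 25 of 40 and 21 of 33 nuclei of replicate 1, and in 21 of 408 and 27 of 422 nuclei of replicate 2. LINC02208 fell by 5.38 on the log2 scale, from 1920 and 1578 CPM to 34.8 and 51.6 CPM. Both kept their calls in all 14 alternatives in which each was tested. CYP1A1, PLPPR4 and AC007100.1 fell by 5.11, 5.02 and 4.02 on the log2 scale, but CYP1A1 rested on 1 or 2 nuclei of each sample, and in PP121 replicate 1 all 30 PLPPR4 UMIs lay in 1 nucleus. CYP1A1 lost its call without control replicate 1, and AC007100.1 without any 1 of control replicate 2, PP121 replicate 1 and PP121 replicate 2. The largest rises were in genes without a UMI in replicate 1. IQCJ-SCHIP1, a readthrough transcript whose reads cannot be told apart from those of its component genes, was at least 22.0-fold higher, the zinc finger factor GLIS1 at least 17.6-fold, ADAMTSL1 at least 14.3-fold and AP001037.1 at least 12.8-fold. GLIS1 did not pass within sub-cluster 1 alone, and AP001037.1 lost its call without doublet candidates or without PP121 replicate 2.

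Of the cell cycle genes, 4 of 23 tested rose, against 1.01% of all genes, and none fell (TOP2A, CENPF, DIAPH3 and ANLN), with a list median of 2.64 on the log2 scale against 0.02 over all genes. TOP2A, DIAPH3 and ANLN lost their calls without doublet candidates, TOP2A and DIAPH3 also without PP121 replicate 2, and CENPF without sub-clusters 4 and 5. The 24 cell cycle genes summed to 132 and 135 CPM in control and PP121 replicate 1 and to 516 and 916 CPM in replicate 2. The deposited phase calls did not follow this order: 37.5% (15 of 40) and 42.4% (14 of 33) of nuclei in control and PP121 replicate 1 were called in S or G2M phase, against 45.1% (184 of 408) and 36.0% (152 of 422) in replicate 2. PP121 and control differed in this share by -2.08 points (39.2 ± 4.53 against 41.3 ± 5.37%, SD, n = 2; exact permutation p = 0.667).

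**Figure D4:**
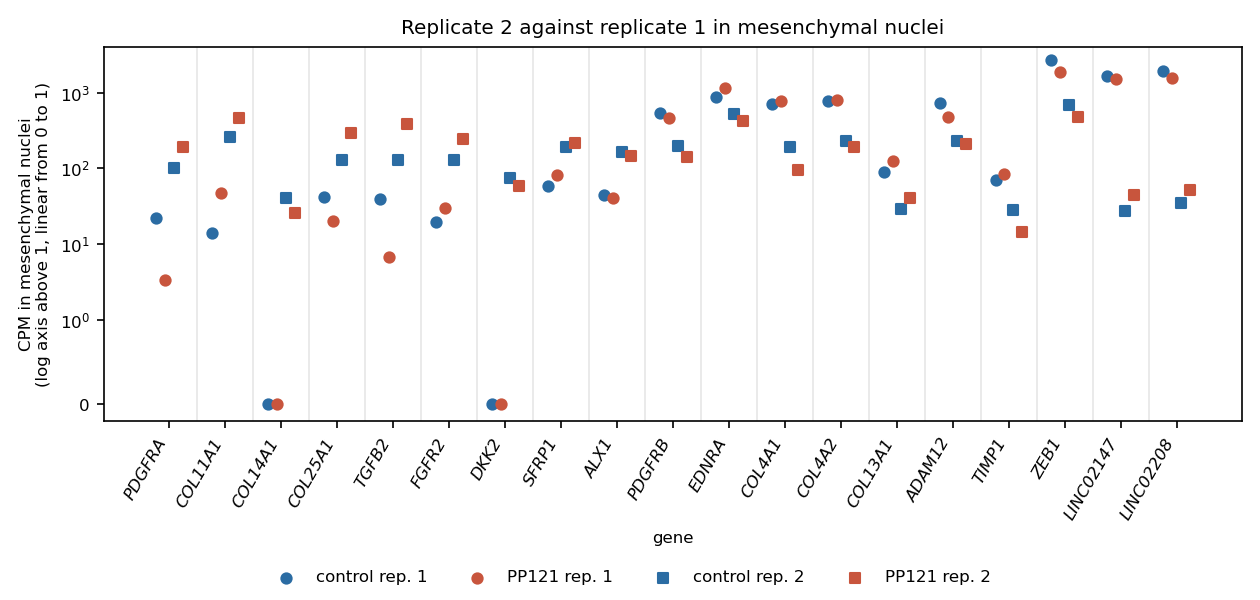
CPM in mesenchymal nuclei (vertical axis, logarithmic above 1 and linear from 0 to 1) of 19 genes that differed between the replicates (horizontal axis), 1 point per sample; circles are replicate 1, squares replicate 2, blue control and red PP121. The first 9 genes have both squares above both circles and the last 10 have both circles above both squares, with COL14A1 and DKK2 at 0 in replicate 1.

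Without the filter on low counts, which tests 27464 genes, 2 genes passed, both falls. The count was 665 without control replicate 1, 516 without control replicate 2 and 786 without PP121 replicate 1. Within the nuclei of sub-cluster 1 alone 246 of 9602 genes tested passed (2.56%), and without sub-clusters 4 and 5 there were 220 of 12808 (1.72%). Far fewer, 26 of 4961 genes tested (0.524%), passed within cluster 5 of a joint clustering of all samples. That cluster holds 25 and 42 nuclei of the controls and 16 and 22 nuclei of the PP121 samples. Among the genes that did not pass within it were PDGFRB, FGFR2, SFRP1, COL4A2, ADAM12, ADAMTS20, ZEB1, FOXP2 and GLI2. COL4A1, LINC02147 and LINC02208 passed within it. The summed epithelial markers moved with the replicates too, and their part in the differences was not tested.

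Between PP121 and control, no gene of 14387 tested passed in mesenchymal nuclei (0%; edgeR quasi-likelihood test), with 222 genes at an unadjusted p under 0.05, and DESeq2 called none, with 84 genes under 0.05. The 3 genes with the smallest p were higher with PP121 in both replicates. NRG3, a ligand of ERBB4, stood at 47.7 and 89.3 CPM in control replicates 1 and 2 and at 242 and 255 CPM in PP121 replicates 1 and 2 (log2 fold change 1.80, SE 0.36, edgeR adjusted p = 1.00). CACNA2D1, a calcium channel subunit, stood at 84.1 and 106 CPM in the controls and at 232 and 231 CPM with PP121 (log2 fold change 1.26, SE 0.29). LINC01414 stood at 75.7 and 77.4 CPM in the controls and at 363 and 168 CPM with PP121 (log2 fold change 1.76, SE 0.42), with 76.9% of its UMIs in PP121 replicate 1 from 1 nucleus. Without PP121 replicate 1 and without PP121 replicate 2 the count of calls was 22 and 24.

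When the replicate entered the fit as a block, 65 genes (0.452%) were called, of which 57 (0.396%) rose and 8 (0.0556%) fell with PP121. NRG3, CACNA2D1 and LINC01414 were among those that rose. SGCZ, a sarcoglycan, stood at 5.61 and 16.6 CPM in control replicates 1 and 2 and at 37.0 and 270 CPM in PP121 replicates 1 and 2 (log2 fold change 3.90 in the block fit, SE 0.44, edgeR adjusted p = 1.22e-10). In PP121 replicate 1, 90.9% of its 11 UMIs came from 1 nucleus, and in PP121 replicate 2, 766 of its 937 UMIs lay in sub-cluster 3, which holds 33 nuclei of control and 157 of PP121 replicate 2. In sub-clusters 1 and 2 of replicate 2 SGCZ stood at 4.62 and 2.08 CPM in control and at 1.87 and 0 CPM with PP121; in sub-cluster 3 it stood at 137 and 735 CPM. DCC, the netrin receptor, stood at 2.80 and 124 CPM in the controls and at 609 and 204 CPM with PP121 (log2 fold change 2.34, SE 0.41), with 92.8% of its UMIs in PP121 replicate 1 from 1 nucleus. In replicate 2 most DCC UMIs lay in sub-cluster 4, at 779 CPM in control and 611 CPM with PP121, so DCC was not higher with PP121 there. CDH12, AL008633.1 and KCNIP4 rose by 2.72, 1.98 and 1.89 on the log2 scale in the same fit. CRY1, a repressor of the circadian clock, stood at 272 and 270 CPM in the controls and at 90.8 and 142 CPM with PP121 (log2 fold change -1.19 in the block fit, SE 0.30, edgeR adjusted p = 0.0296). In replicate 2 CRY1 was highest in sub-cluster 2, at 411 CPM in control and 264 CPM with PP121, and stood at 175 and 166 CPM in sub-cluster 1; sub-cluster 2 holds 178 nuclei of control and 46 of PP121 replicate 2. In replicate 1 CRY1 stood at 179 and 94.2 CPM in sub-cluster 1 and at 492 and 93.3 CPM in the 12 control and 11 PP121 nuclei of sub-cluster 2, so it was lower with PP121 in each of the 4 pairs, by little in sub-cluster 1 of replicate 2. ANXA1 and AP000561.1 fell by 3.15 and 3.98 on the log2 scale, and in control replicate 1 77.8% of the 36 ANXA1 UMIs came from 1 nucleus. For AP000561.1, 1 nucleus held all 26 UMIs of control replicate 1, and 1 nucleus held 92.9% of the 42 UMIs of control replicate 2. Sub-cluster 2 made up 43.6% of mesenchymal nuclei in control and 10.9% in PP121 replicate 2, and 30% and 33.3% in replicate 1. Sub-cluster 3 made up 8.09% and 37.2% in replicate 2, and no nucleus of replicate 1 was placed in it. The part of these shares in the gene differences was not tested. No gene passed with the block once doublet candidates or sub-clusters 4 and 5 were left out or within sub-cluster 1 alone, and 3 passed with the block in DESeq2.

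The targets of PP121 did not pass in either fit. PDGFRA differed by 0.71 on the log2 scale (SE 1.06, edgeR adjusted p = 1.00) and by 0.53 (SE 0.40) with the block, and PDGFRB by -0.31 (SE 0.66) and -0.36 (SE 0.27). None of 14 PDGF and VEGF genes tested and none of 6 SRC and ABL kinases passed, with list medians of -0.03 and -0.27 on the log2 scale with the block against 0.01 over all genes. With the block, 1 of 10 fibrillar collagens (COL24A1), 2 of 21 matrix enzymes (ADAMTS9 and ADAMTSL1) and 1 of 20 factors for enteric progenitors (NRG1) rose, against 0.396% of all genes. NRG1 stood at 0 and 16.6 CPM in the controls and at 13.5 and 275 CPM with PP121, and 61.5% of its 955 UMIs in PP121 replicate 2 lay in 1 nucleus. None of 32 transcription factors, 27 other collagens and 43 proteoglycan and elastic fibre genes passed.

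**Figure D5:**
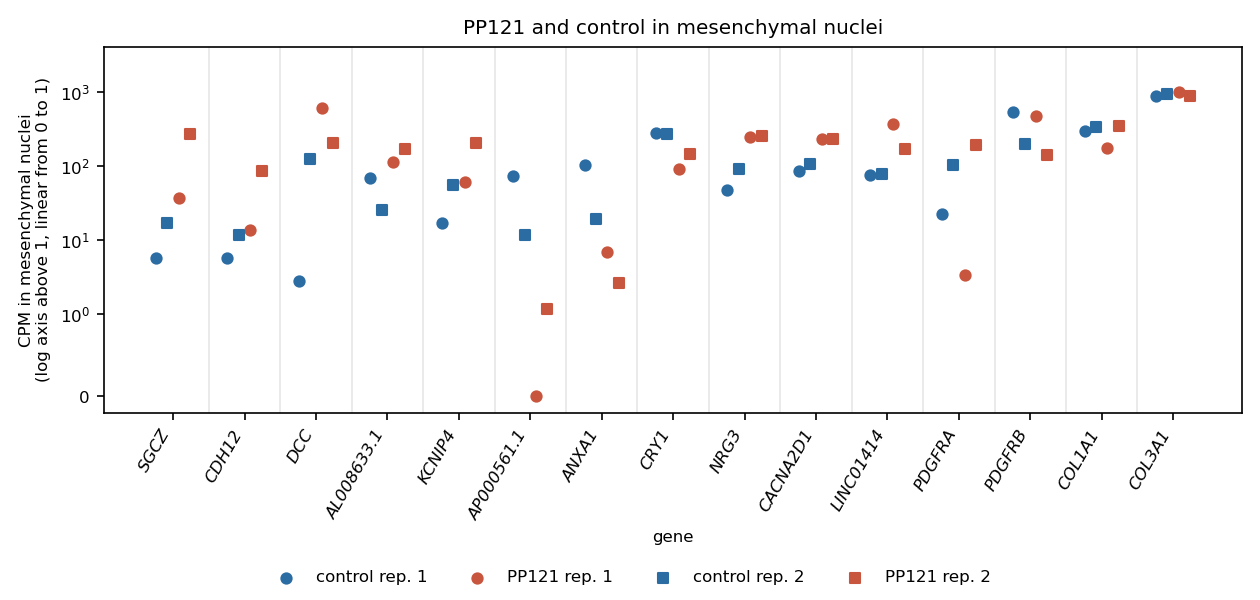
CPM in mesenchymal nuclei (vertical axis, logarithmic above 1 and linear from 0 to 1) of 15 genes in the comparison of PP121 with control (horizontal axis), 1 point per sample; blue is control and red PP121, circles are replicate 1 and squares replicate 2. SGCZ, CDH12, DCC, NRG3, CACNA2D1 and LINC01414 have both red points above both blue points, ANXA1 and CRY1 have them below, and COL3A1 lies between 861 and 993 CPM in all 4 samples.

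The effect of PP121 in mesenchymal nuclei was tested against its effect in progenitor 1 and 2 nuclei of the same samples. No gene of 20045 passed (0%), with 347 at an unadjusted p under 0.05, and DESeq2 called none, with 140 under 0.05. With the replicate as a block 74 passed (0.369%), 46 (0.229%) with a positive and 28 (0.14%) with a negative difference, mesenchymal nuclei minus progenitors. SGCZ had the largest positive difference (5.71 on the log2 scale, SE 0.46): in progenitors it stood at 22.7 and 23.4 CPM in control replicates 1 and 2 and at 11.9 and 6.20 CPM in PP121 replicates 1 and 2, with both PP121 samples below both controls there. The sub-cluster numbers given above for SGCZ apply here too. BMP5 had a difference of -2.23 (SE 0.31), with 143 and 238 CPM in control and 283 and 256 CPM in PP121 mesenchymal nuclei of replicates 1 and 2, against 1.55 and 6.82 CPM and 11.6 and 38.8 CPM in progenitors. The receptor tyrosine kinase EPHA7 had a difference of -2.02 (SE 0.32), and PDGFD, a ligand of PDGFRB, of -2.14 (SE 0.57). PDGFD passed in the block fit alone. In mesenchymal nuclei of replicate 1 it had 14 UMIs in control, 64.3% of them in 1 nucleus, and 1 UMI with PP121. The number without the block was 4 without control replicate 1, 76 without control replicate 2, 98 without PP121 replicate 1 and 44 without PP121 replicate 2.

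The difference between the replicates was compared with that in progenitors in the same way, and 325 of 20045 genes passed (1.62%), 203 (1.01%) with a positive and 122 (0.609%) with a negative difference, mesenchymal nuclei minus progenitors. Of the 9 mesenchymal markers, PDGFRA had a positive difference (3.25 on the log2 scale, edgeR adjusted p = 0.027) and 7 had a negative one, among them PDGFRB (-2.15, edgeR adjusted p = 0.0026) and COL3A1 (-2.86). COL3A1 itself differed little in mesenchymal nuclei between replicates, as given above. The count was 167 without PP121 replicate 2 and 36 with at least 10 counts required in every library.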

How the data were processed

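Nuclei of 4 samples were profiled with a 3′ droplet kit. The authors deposited raw counts, the number of UMIs of each of 36601 features in each nucleus, with 1 matrix and 1 annotation table per sample; every value was whole. Features are named by symbol alone. The study's methods name kallisto and bustools, and the submitters' processing notes list Cell Ranger, Seurat 4.0.4 and GRCh38; whether introns were counted and whether strand was used are not given in the sources used here. The deposited percent of mitochondrial counts and the deposited cell cycle phases were used as given. Nuclei that the authors' annotation marks as filtered were left out of every comparison. A deposited column of sample names disagrees with the labels for the control samples, and the labels were used. The 4 matrices total 29305639 to 49428774 UMIs, and 59 barcodes occur in more than 1 library, of which 5 mesenchymal nuclei carry 1 and none is mesenchymal in more than 1 library.

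Counts were summed over mesenchymal nuclei per sample (297230 to 3618664 UMIs) and tested with edgeR 4.0.16 in R 4.3.3: the quasi-likelihood test was two-sided, with TMM scaling, genes of low count removed by filterByExpr, and p-values adjusted by Benjamini-Hochberg (threshold 0.05). The SE is the log2 fold change over the square root of the F statistic. Interactions with progenitors had the sample as a block. The replicate number pairs the samples through the differentiation number of the labels and the shared deposited date. Same-numbered samples deviated together from their group means (correlation across genes 0.276). Of all pairs of samples, those of replicate 2 correlated most (Pearson r of log2 CPM 0.956) but those of replicate 1 least (0.791), below the 2 controls (0.844). The block fit is given where it changes a call. Shares have exact Clopper-Pearson intervals, sums exact Poisson intervals, both at 95% and for counting error only. Scripts were tested on simulated data.

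Sub-clusters came from log-normalized counts of replicate 2 (2000 variable genes, 20 components, Leiden at resolution 0.4, scanpy 1.11.5). Scrublet's automatic threshold marked at most 1 nucleus per sample and had not worked, so annotated nuclei at or above the score that the top 6% of a sample reach, ties included, were taken as doublet candidates, a choice made after the data were seen; they were removed only in an alternative. A gene was led by the class where its CPM, with 0.5 CPM added to both sides, was at least 4-fold that of the other nuclei. A list counts a gene once it has 10 UMIs in 1 mesenchymal sum.

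Members, lists, tests and alternatives were chosen with earlier results of these data known. The text names, for each test, the 5 largest rises and falls among called genes whose samples of both groups do not overlap and whose mean reaches 10 CPM (for interactions, in either class), or else the 3 smallest p. It adds the 25 leading genes with at least 50 UMIs in each replicate 2 sample, the genes of the lists and the leading genes of sub-clusters; some genes these rules name are not reported here.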

Additional observations from a re-analysis of the deposited data

Results flagged for a closer look

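For 325 of 20045 genes (1.62%) the difference between replicate 2 and replicate 1 in mesenchymal nuclei differed from that in progenitor 1 and 2 nuclei of the same samples (interaction term, edgeR quasi-likelihood test, adjusted p under 0.05), 203 of them positive and 122 negative. Without PP121 replicate 2 the number was 167. The largest negative differences among genes at 10 CPM or more were in PLPPR4 (-5.13 on the log2 scale), AC106845.1 (-5.11), DSP (-4.96), LINC02208 (-4.76) and LINC02147 (-4.69). DSP, the desmosomal plaque protein desmoplakin, stood at 109 and 43.7 CPM in mesenchymal nuclei of control and PP121 replicate 1 and at 17.96 and 4.03 CPM in replicate 2. Of its UMIs, all 13 in PP121 replicate 1 and 48.7% in control replicate 1 lay in 1 nucleus, and it lost its call without control replicate 1 or control replicate 2. Epithelial markers summed to 160 and 57.2 CPM in mesenchymal nuclei of control and PP121 replicate 1 and to 39.0 and 18.1 CPM in replicate 2, and their part in the DSP difference was not tested. PLPPR4 lost its call without PP121 replicate 1 or PP121 replicate 2. AC106845.1 stood at 241 and 215 CPM against 54.2 and 74.0 CPM, and lost its call without control replicate 1 or PP121 replicate 2. The largest positive fitted differences were in IQCJ-SCHIP1 (12.74), GLIS1 (12.25), KCTD8 (12.21), COL14A1 (11.49) and DKK2 (11.45), each without a UMI in mesenchymal nuclei of replicate 1, so these fitted values depend on the prior count and are no bounds. GLIS1 lost its call without PP121 replicate 1, and DKK2 without control or PP121 replicate 1. Of the 9 mesenchymal markers 7 had a negative difference, although 1 of them fell within mesenchymal nuclei: in progenitors the summed markers stood at 21.9 to 33.9 CPM in replicate 1 and at 67.7 to 89.0 CPM in replicate 2.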

How the results depend on the processing

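Replicate 1 gives 73 mesenchymal nuclei, and depth there limits every comparison. Of 77 alternatives to the shares, counts of calls and counts of led genes, 50 stayed close to the reported value and 27 moved. A replicate block was used because same-numbered samples share a differentiation number and a deposited date. With it the calls for PP121 went from 0 to 65 and for its interaction with progenitors from 0 to 74. Single genes whose calls it changed are counted below. With the treatment as a block the replicate difference had 632 calls. With a term for class by treatment added, the calls for the replicate interaction went from 325 to 623. The block with DESeq2 called 3 genes for PP121. Without the filter on low counts the calls were 40 for PP121, 21 for its interaction, 2 for the replicates and 735 for their interaction. With 10 counts required in every library the replicate interaction had 36 calls. Within joint cluster 5 alone the replicates had 26, and within sub-cluster 1 alone 246. Leaving out 1 sample in turn gave 0 to 24 calls for PP121, 4 to 98 for its interaction, 262 to 786 for the replicates and 167 to 383 for their interaction. Over all deposited nuclei the share in replicate 2 exceeded that in replicate 1 by 8.01 points, and the G2M share alone differed by 3.93 points between PP121 and control. Led genes numbered 1063 at 2-fold, 150 over the highest single class, 269 over all 4 samples, and 637 to 687 with 1 replicate 2 sample left out. Of 738 alternatives to single genes, 576 kept direction and side of the threshold, 93 lost a call, 64 gained one and 5 turned: PDGFRA for PP121 without PP121 replicate 2 (range with 1 sample left out -4.27 to 2.18 on the log2 scale) and with the block in DESeq2 (-0.0094), PDGFRB without control replicate 1 (0.600) or PP121 replicate 2 (0.361; range -1.40 to 0.600), and MYBPC1 in the PP121 interaction without control replicate 2 (-13.2 to 0.610). The causes were not tested. Phases were not called again on thinned nuclei, since the gene lists behind the calls are not analysed here. The alternatives with sub-clusters, joint clusters or the block combined with another choice were chosen after the data were seen.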

Other observations

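Nuclei marked as filtered by the authors' annotation held the 9 mesenchymal markers at 52.1 and 174 CPM in control replicates 1 and 2 and at 32.4 and 477 CPM in PP121 replicates 1 and 2, so both replicate 2 samples were above both replicate 1 samples, as in the annotated enteric neurons (14.7 and 48.2 CPM, and 11.4 and 56.3 CPM).

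Cartilage markers (7 genes) summed to 373 and 359 CPM in mesenchymal nuclei of control replicates 1 and 2 and to 202 and 725 CPM in those of PP121. Nearly all of this was SOX5 (272 and 148 CPM, and 151 and 281 CPM) and SOX6 (89.7 and 195 CPM, and 47.1 and 427 CPM), while SOX9, COL2A1, ACAN, COL9A1 and MATN4 stood at 0 to 11.2 CPM. In the same order, bone markers (5 genes) summed to 207 and 169 CPM and to 121 and 436 CPM. RUNX2, which drives bone formation, stood at 193 and 160 CPM in the controls and at 111 and 425 CPM with PP121, and passed in no comparison; SOX6, a cartilage factor, was higher in replicate 2 than in replicate 1 (log2 fold change 2.12, SE 0.43, edgeR adjusted p = 0.0329). Against the pooled other nuclei of replicate 2, the 4 cartilage and 2 bone markers at 5 CPM or more had median log2 ratios of -0.73 and 0.13. None of them was led at least 4-fold, against 3.49% of all genes at this level. Skeletal muscle markers (5 genes) stood at 8.41 to 26.5 CPM, fat markers (4 genes) at 3.46 to 20.2 CPM and interstitial cell of Cajal markers (4 genes) at 57.2 to 138 CPM.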
